A study of Mus musculus with 6 samples.

Results

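The Akr1b and Akr1c aldo-keto reductases were followed across liver tumours, KAP1-deleted livers and control livers of mice on a high-fat diet. The 10 genes are Akr1b3, Akr1b7, Akr1b8, Akr1b10, Akr1c6, Akr1c12, Akr1c13, Akr1c14, Akr1c19 and Akr1c20, chosen by symbol among the 37991 Ensembl genes counted. All 10 were found and all 10 were among the 17558 genes tested, Akr1b7 only through its counts in the tumours. RNA sequencing gave 6 libraries from 4 mice, 2 per group, with 39723997 to 62178752 counts on genes. The tumours were primary tumours and the KAP1-deleted livers were liver tissue of mice labelled TgAlbCreKap1lox, in which Cre recombinase driven by the albumin promoter deletes Kap1 (Trim28) in hepatocytes. By the title codes, tumour and KAP1-deleted liver of the same number came from the same mouse. The control livers came from mice labelled TgAlbCre, which carry the same Cre transgene without the floxed gene. All mice had received the diet for 27 weeks when they were sacrificed aged 35 weeks, and the labels name no group on another diet. Cells in which the albumin promoter is silent keep the gene, and no mouse gave both a control liver and another library.

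Aldo-keto reductases are cytosolic enzymes that use NADPH to reduce aldehydes and ketones to alcohols. The Akr1b genes encode aldose reductase and its relatives, which act on glucose, lipid-derived aldehydes and retinaldehyde, while the Akr1c genes encode hydroxysteroid dehydrogenases that also handle prostaglandins, bile acid precursors and foreign compounds. In rodents both subfamilies have expanded by local duplication, and the liver is a main site of several Akr1c enzymes.

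In the GRCm38 annotation the 4 Akr1b genes lie next to each other on chromosome 6 in the order Akr1b3, Akr1b8, Akr1b10 and Akr1b7, with 2 pseudogenes between Akr1b8 and Akr1b10. The 6 Akr1c genes lie on chromosome 13 in the order Akr1c14, Akr1c13, Akr1c19, Akr1c12, Akr1c6 and Akr1c20, with Akr1c18, the ovarian enzyme that inactivates progesterone, between Akr1c14 and Akr1c13. Start regions of 8 members were found in RefSeq (GRCm38.p6), each 250 bases before to 50 bases after the gene's start, read 5′ to 3′ on the gene's strand. Akr1b7 and Akr1b10 are shown first because they are neighbours with a transcript identity of 86.0%, yet had very different levels in liver. Akr1b7 is taken from chr6:34412112-34412411 and Akr1b10 from chr6:34383997-34384296, both on the plus strand. Capitals mark their longest shared run, 13 bases, and the best local alignment held 132 bases at 68.9% identity.
Akr1b7: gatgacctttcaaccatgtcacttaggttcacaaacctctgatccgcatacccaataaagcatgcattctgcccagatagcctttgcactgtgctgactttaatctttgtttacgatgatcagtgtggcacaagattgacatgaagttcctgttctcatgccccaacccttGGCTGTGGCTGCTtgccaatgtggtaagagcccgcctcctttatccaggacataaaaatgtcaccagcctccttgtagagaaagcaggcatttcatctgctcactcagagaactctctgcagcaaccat
Akr1b10: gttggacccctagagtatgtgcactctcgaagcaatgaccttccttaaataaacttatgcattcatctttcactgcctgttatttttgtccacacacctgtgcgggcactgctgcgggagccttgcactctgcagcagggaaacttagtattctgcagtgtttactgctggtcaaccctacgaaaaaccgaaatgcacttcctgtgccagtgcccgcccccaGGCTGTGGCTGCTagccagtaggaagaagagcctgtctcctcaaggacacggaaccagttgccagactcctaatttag

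Akr1c12 and Akr1c13 are shown because they are the most alike pair of members, with a transcript identity of 94.6% over 1260 bases. Akr1c12 is taken from chr13:4279350-4279649 on the minus strand and Akr1c13 from chr13:4190937-4191236 on the plus strand. Their start regions were identical at 95.9% of 296 aligned bases, and capitals mark the 12 aligned bases that differ. Akr1c13 also holds an additional a in the run that follows gtattt, a gap left in small letters.
Akr1c12: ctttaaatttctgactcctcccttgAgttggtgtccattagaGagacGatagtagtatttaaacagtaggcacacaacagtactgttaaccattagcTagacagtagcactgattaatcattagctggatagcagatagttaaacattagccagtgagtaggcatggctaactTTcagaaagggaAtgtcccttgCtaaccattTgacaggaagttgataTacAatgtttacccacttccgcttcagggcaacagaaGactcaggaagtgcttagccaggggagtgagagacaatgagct
Akr1c13: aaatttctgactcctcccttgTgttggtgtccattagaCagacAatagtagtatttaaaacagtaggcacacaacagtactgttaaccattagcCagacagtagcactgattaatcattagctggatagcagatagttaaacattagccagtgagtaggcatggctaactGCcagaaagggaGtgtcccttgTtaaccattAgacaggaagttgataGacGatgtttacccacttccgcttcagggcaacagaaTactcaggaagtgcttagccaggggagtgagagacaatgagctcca

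Akr1c6 and Akr1c19 are shown because they were the Akr1c members called higher in tumour than in KAP1-deleted liver. They are taken from chr13:4434093-4434392 and chr13:4233490-4233789, both on the plus strand. Capitals mark the motif matches described below.
Akr1c6: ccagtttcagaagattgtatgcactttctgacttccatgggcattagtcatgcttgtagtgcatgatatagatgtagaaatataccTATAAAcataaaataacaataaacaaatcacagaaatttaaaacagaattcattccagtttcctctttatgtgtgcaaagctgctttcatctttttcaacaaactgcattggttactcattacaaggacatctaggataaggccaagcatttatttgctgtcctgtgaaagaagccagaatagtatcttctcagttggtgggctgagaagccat
Akr1c19: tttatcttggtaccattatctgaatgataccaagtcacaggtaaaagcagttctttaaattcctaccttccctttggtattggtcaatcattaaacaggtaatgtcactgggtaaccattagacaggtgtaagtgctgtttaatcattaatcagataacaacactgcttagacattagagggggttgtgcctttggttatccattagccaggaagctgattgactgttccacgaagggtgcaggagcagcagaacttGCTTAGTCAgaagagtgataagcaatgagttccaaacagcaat

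Motifs were searched on both strands of these windows. The antioxidant response element, TGACNNNGC, matched in 1 of 8 members, Akr1c19, where it lies on the minus strand at base 8 after the start, and in 12.4% of 32851 promoters of the same length. TATAAA matched in Akr1b8 and Akr1c6, in Akr1c6 at base -164 relative to the start, and in 13.6% of all promoters. The TCF/LEF motif CTTTGAT, the HNF4A motif CAAAGTCCA and the FXR inverted repeat of hexamer half-sites matched in 0 of 8 members, and in 3.73%, 0.475% and 0.00913% of all promoters. A match here is a run of letters and not a measured binding site. The GC content of the 8 windows ran from 36% in Akr1c6 to 51% in Akr1b10, against a median of 52.7% over all promoters. The Akr1c6 window held 0 CG dinucleotides, and the median promoter held 7.

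Levels are given as CPM, the counts of a gene scaled to a common library total, with TMM-scaled library sizes, and differences as log2 fold changes from edgeR's quasi-likelihood test fitted to all 6 libraries, with p-values adjusted by Benjamini-Hochberg over all 17558 genes and called under 0.05. Replicates are separate mice. The spread behind a p-value comes from these 2 animals per group, pooled over the 3 groups and drawn towards that of other genes. Trim28, the deleted gene, had 5.22 and 4.59 CPM in tumours 1 and 2, against 5.06 and 6.02 CPM in livers 1 and 2 of the KAP1-deleted group and 32.5 and 35.9 CPM in control livers. It was lower in KAP1-deleted liver than in control liver by a log2 fold change of -2.63 ± 0.19 (SE, edgeR adjusted p = 0.00393). Hepatocyte markers such as albumin were present in all 6 libraries, with a summed level of 25264 and 44904 CPM in tumours and 69094 and 82009 CPM in KAP1-deleted livers, against 76371 and 91463 CPM in control livers. Albumin alone made up most of this sum in every library, with 18162 and 34887 CPM in tumours. KAP1-deleted liver 2 stood apart in its exocrine pancreas markers other than Cela1 and Amy2a1. It had 3.77 CPM of Pnlip, 3.45 CPM of Prss2 and 3.43 CPM of Cpa1, while each of these was at most 0.114 CPM in the other 5 libraries. Cela1 was highest in tumour 2, at 37.9 CPM against 9.66 CPM in KAP1-deleted liver 2, and Amy2a1 had no counts in any library. Entries that name no gene took 33.1% to 36.7% of counted reads in tumours and 20.9% to 27.6% in the 4 livers. The part of any of these in the results below was not tested. Values without KAP1-deleted liver 2 are given where they change a member's call. They are not given for the cell type markers, where calls of Kupffer cell, endothelial and stellate cell markers also changed without it. In bulk tissue fewer cells of a type and less RNA per cell cannot be told apart.

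The Akr1b genes other than Akr1b7 were low in every library. Akr1b3, aldose reductase, which turns glucose into sorbitol in the polyol pathway, had 3.62 and 5.48 CPM in tumours and 4.36 and 4.70 CPM in KAP1-deleted livers, against 5.43 and 6.04 CPM in control livers. The tumours spanned the range of both liver groups but for the highest control liver. Akr1b8, a reductase of retinaldehyde and other aldehydes, had 1.62 and 1.56 CPM in tumours and 2.09 and 1.61 CPM in KAP1-deleted livers, against 1.39 and 1.70 CPM in control livers. All 3 groups overlapped. Akr1b10, named for the human tumour-associated gene, had 1.91 and 4.27 CPM in tumours and 1.54 and 1.63 CPM in KAP1-deleted livers, against 1.99 and 1.87 CPM in control livers. Tumour 2 was apart from the other 5 libraries, which all lay under 2 CPM.

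Akr1b7, an aldose reductase-like protein known from the adrenal cortex and the vas deferens and, in liver, as a target of the bile acid receptor FXR, was almost absent from liver and present in both tumours. It had 195 and 501 counts in tumours, 2 and 2 counts in KAP1-deleted livers, and 4 and 9 counts in control livers. As levels these were 2.69 CPM (95% Poisson interval 2.33 to 3.10) and 9.54 CPM (8.72 to 10.4) in tumours, 0.0454 CPM (0.00550 to 0.164) and 0.0424 CPM (0.00513 to 0.153) in KAP1-deleted livers, and 0.115 CPM (0.0315 to 0.296) and 0.153 CPM (0.0699 to 0.290) in control livers. The lower tumour lay far above the highest liver, and the tumours differed from each other by more than counting error. These intervals cover counting error only. The overlapping pseudogene Gm13857 had 0 to 2 counts per library, and 72.3% of the 31-base words of Akr1b7 occur in no other gene, so its level is uncertain to the extent that reads of relatives were placed on it. The other aldo-keto reductase genes that share its words are Akr1b10, with 7.03% of them, and Akr1b8, with 3.28%.

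Akr1c6, a hydroxysteroid dehydrogenase of mouse liver that acts on androgens and oestrogens, was the most abundant member in every library. It had 2568 and 2510.3 CPM in tumours and 1180.5 and 1227.0 CPM in KAP1-deleted livers, against 1164 and 1055 CPM in control livers. Both tumours were above all 4 livers, while the replicates of each group were close together. Akr1c14, which reduces the keto group of dihydrotestosterone and other steroids, had 587 and 1030.4 CPM in tumours and 618 and 626 CPM in KAP1-deleted livers, against 433 and 556 CPM in control livers. Tumour 2 was above every liver, and tumour 1 lay under both KAP1-deleted livers. Akr1c20, a close relative of Akr1c6 with a transcript identity of 82.9%, had 243 and 298 CPM in tumours and 118 and 130.1 CPM in KAP1-deleted livers, against 61.0 and 126 CPM in control livers. Both tumours were above all livers, and control liver 2 lay between the KAP1-deleted livers.

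Akr1c19, a dehydrogenase of hydroxysteroids and other alcohols, had 175 and 105 CPM in tumours and 78.3 and 57.3 CPM in KAP1-deleted livers, against 71.7 and 77.1 CPM in control livers. The 4 livers overlapped and tumour 1 was the highest library. Akr1c13 had 107 and 101 CPM in tumours and 78.3 and 83.5 CPM in KAP1-deleted livers, against 71.0 and 96.1 CPM in control livers. Its near copy Akr1c12 had 68.3 and 68.3 CPM in tumours and 58.3 and 62.6 CPM in KAP1-deleted livers, against 61.3 and 71.2 CPM in control livers. Both are reductases of broad substrate range described in mouse stomach and liver. Of the 31-base words of Akr1c12, 39.2% occur in Akr1c13, and of those of Akr1c13, 33.7% occur in Akr1c12, so the division of counts between the pair is uncertain. In 6 of 6 libraries Akr1c13 had more counts than Akr1c12.

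**Figure D1:**
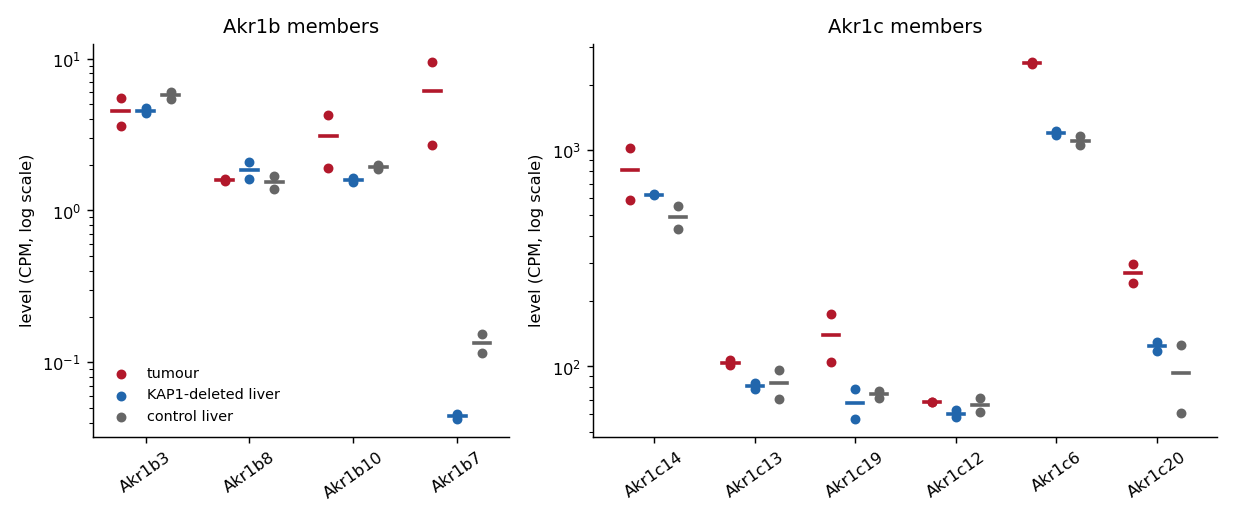
Level of each member in each library, in CPM on log axes, with points for libraries and bars for group means of 2 libraries; genes stand in their order on chromosome 6 (left) and chromosome 13 (right). Akr1b7 lies at 2.69 and 9.54 CPM in tumours and under 0.2 CPM in the 4 livers, and Akr1c6 lies at 2568 and 2510.3 CPM in tumours, above the 4 livers.

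Levels between genes were compared per length, as CPM per kb of the longest coding transcript. Akr1c6 was first in every group, with 1819 ± 29.4 CPM per kb in tumours, 862 ± 23.6 in KAP1-deleted livers and 795 ± 55.2 in control livers (SD, n = 2 each). Akr1c14 followed, with 254 ± 98.6, 195 ± 1.62 and 155 ± 27.4 CPM per kb in tumours, KAP1-deleted livers and control livers. Akr1c20 was next, with 202 ± 29.2, 92.8 ± 6.42 and 70.02 ± 34.5 CPM per kb in the same groups. The means of Akr1c14 and Akr1c20 in tumours lay closer together than the sum of their SDs, and so did those of Akr1c20 and Akr1c13, and of Akr1c13 and Akr1c12, in control livers. Akr1c13 had 82.6 ± 3.30, 64.1 ± 2.91 and 66.2 ± 14.1 CPM per kb and Akr1c12 had 54.2 ± 0.0296, 47.9 ± 2.43 and 52.6 ± 5.55 CPM per kb in the same order of groups. Akr1c19 was sixth with 24.0 ± 8.43, 11.6 ± 2.55 and 12.8 ± 0.651 CPM per kb, a rank that depends on its length. With its shortest coding transcript of 1242 bases in place of the longest of 5832 bases it ranked 4 in tumours and 5 in both liver groups.

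The Akr1b genes stood below all Akr1c genes per length in all 3 groups. Akr1b7 ranked 7 of 10 in tumours, at 4.77 ± 3.78 CPM per kb, and 10 of 10 in both liver groups, at 0.0343 ± 0.00168 in KAP1-deleted livers and 0.105 ± 0.0206 in control livers. In tumours the means of Akr1b7, Akr1b3, Akr1b10 and Akr1b8, in this order, lay closer to their neighbours than the sum of the SDs, as did those of Akr1b8 and Akr1b10 in KAP1-deleted livers. Within the Akr1b subfamily, Akr1b7 made up 38.2 ± 13.2% of the summed per-length level in tumours, 0.589 ± 0.0257% in KAP1-deleted livers and 1.54 ± 0.206% in control livers. Akr1b3 held 30.5 ± 7.45% in tumours, 56.1 ± 3.31% in KAP1-deleted livers and 60.9 ± 0.742% in control livers. Within the Akr1c subfamily, Akr1c6 held 74.7 ± 3.87% in tumours, 67.7 ± 0.0228% in KAP1-deleted livers and 69.1 ± 6.41% in control livers. The Akr1c6 share overlapped between tumours and control livers and was above both KAP1-deleted livers in the tumours. Summed per length, the Akr1c genes reached 2436 ± 86.7 CPM per kb in tumours, 1274 ± 34.4 in KAP1-deleted livers and 1152 ± 26.9 in control livers, with no overlap between the tumours and either liver group. An exact permutation test of 2 against 2 libraries cannot go below p = 0.333, so these sums and shares carry no test.

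**Figure D2:**
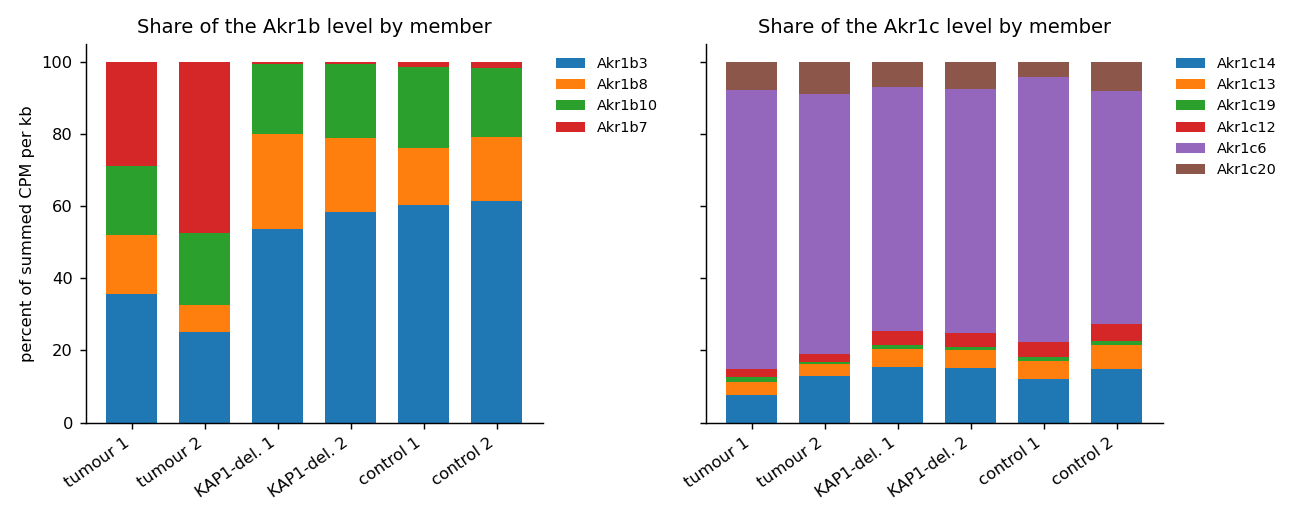
Share of each member in the summed CPM per kb of its subfamily, in percent, one bar per library from tumours to control livers. Akr1b7 takes 28.8% and 47.5% of the Akr1b level in tumours and under 2% in each liver, while Akr1c6 takes most of the Akr1c level in all 6 libraries.

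The comparison of tumour with KAP1-deleted liver asked how the tumours differ from liver tissue of the same mice, with KAP1 deleted on both sides. Akr1b7, Akr1c6 and Akr1c19 were called higher in tumour, 3 of 10 members, against 4.8% of all genes called higher, 6.64% called lower and 11.4% called in either direction. No member was called lower. Akr1b7 was tested only through its tumour counts, so its place among the 3 called is not independent of the filter. Akr1b7 was higher in both tumours, by a log2 fold change of 7.04 ± 0.81 (SE, 95% interval 5.15 to 8.93, edgeR adjusted p = 0.00323). The KAP1-deleted livers gave 4 counts of it in all. The summed counts, 696 against 4, give 127-fold with an exact counting interval of 49.4 to 468. That interval covers counting error only and leaves out the spread between animals. Of the 696 counts 501 are from tumour 2, and the log2 fold change was 5.85 without tumour 2 and 7.68 without tumour 1. Akr1c6 was 2.11-fold higher, a log2 fold change of 1.08 ± 0.24 (interval 0.52 to 1.63, edgeR adjusted p = 0.0287). Akr1c19 was 2.06-fold higher, a log2 fold change of 1.04 ± 0.27 (interval 0.42 to 1.67, edgeR adjusted p = 0.0461).

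Akr1c20 had a log2 fold change of 1.12 ± 0.32 (interval 0.37 to 1.87), with an edgeR adjusted p of 0.0631 that missed the threshold. With the mouse as a block it was called, with an adjusted p of 0.00175, in a fit with 1 residual degree of freedom. It was also called with either control liver left out, where Akr1c19 was not, and in other fits named in the last section. Akr1b10 had a log2 fold change of 0.95 ± 0.38 (interval 0.06 to 1.84, edgeR adjusted p = 0.148). Without tumour 1 it was called, with an adjusted p of 0.0450. The other 5 members had log2 fold changes from -0.22 for Akr1b8 to 0.38 for Akr1c14, with adjusted p of 0.260 to 0.995, and their intervals ran from -0.87 to 1.08. In 7 members both tumours were above both KAP1-deleted livers and in 0 both were below, against 28.7% and 34.8% of all genes. The 7 include Akr1b7, which was tested only through its tumour counts.

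Akr1b7 was called with each of the 6 libraries left out in turn, with a highest adjusted p of 0.0365. Akr1c6 lost its call without KAP1-deleted liver 1 (adjusted p = 0.203), KAP1-deleted liver 2 (0.227), tumour 1 (0.0933) or tumour 2 (0.0752), and Akr1c19 lost it without each library but tumour 2, with adjusted p of 0.0538 to 0.258.

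**Figure D3:**
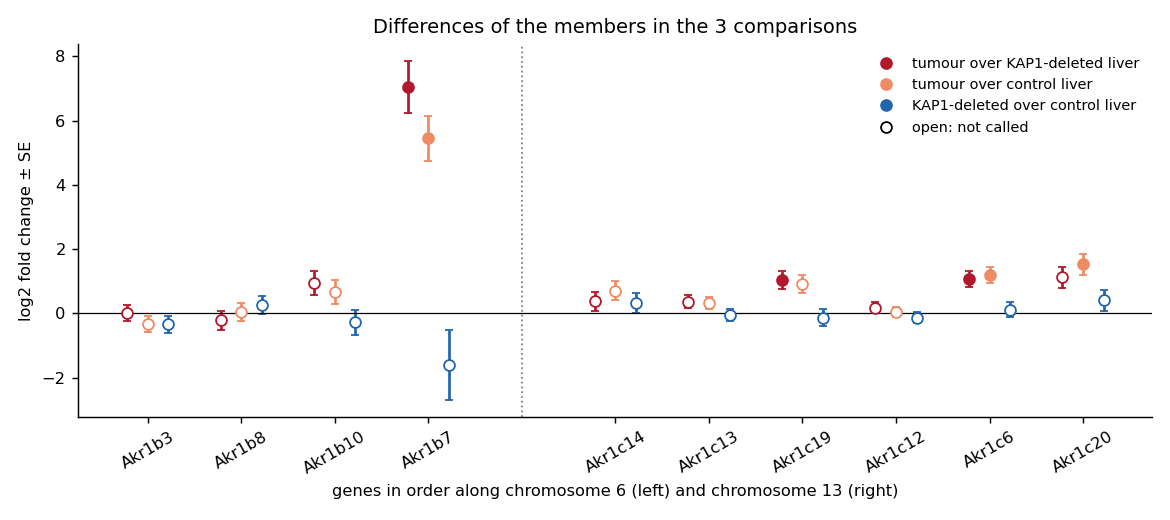
Log2 fold change of each member with its SE in the 3 comparisons, tumour over KAP1-deleted liver, tumour over control liver and KAP1-deleted liver over control liver, with filled points for calls at an adjusted p under 0.05. Akr1b7 stands at 7.04 and 5.45 in the tumour comparisons, and no filled point lies below 0.

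Against control liver, which shares the tumour libraries with the comparison above, Akr1b7, Akr1c6 and Akr1c20 were called higher in tumour and 0 of 10 were called lower, against 6.15% and 7.76% of all genes, 13.9% together. Akr1b7 had a log2 fold change of 5.45 ± 0.70 (edgeR adjusted p = 0.00370), and its counts of 696 against 13 gave 40.1-fold with an exact counting interval of 23.3 to 75.7. This interval too leaves out the spread between animals. Without tumour 2 the log2 fold change was 4.26 and without tumour 1 it was 6.08. Akr1c6 was 2.29-fold higher, with a log2 fold change of 1.19 ± 0.24 (edgeR adjusted p = 0.0178). Akr1c20 was 2.89-fold higher, with a log2 fold change of 1.53 ± 0.33 (edgeR adjusted p = 0.0222). Akr1c19 had a log2 fold change of 0.91 ± 0.27 and an edgeR adjusted p of 0.0629. It was called with no filter on low counts, in DESeq2 (0.0159), with the replicate number as a block (0.0408) and without tumour 2. Whether its difference from control liver is smaller than that from KAP1-deleted liver was not tested. Akr1c14 had 0.71 ± 0.30 on the log2 scale (edgeR adjusted p = 0.163), and the other 5 members ran from -0.34 for Akr1b3 to 0.67 for Akr1b10. In 6 members both tumours were above both control livers and in 0 both were below, against 26.5% and 29.9% of all genes. Akr1b7, tested only through its tumour counts, is among these 6 and among the members called. Akr1b7 lost its call without control liver 1 (adjusted p = 0.0504) or control liver 2 (0.0774), Akr1c6 without control liver 2 (0.0662), tumour 1 (0.0616) or tumour 2 (0.0526), and Akr1c20 without tumour 1 (0.0679) or tumour 2 (0.104).

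Setting KAP1-deleted liver against control liver compared liver tissue with and without KAP1 in hepatocytes. Both KAP1-deleted livers came from the mice that gave the tumours, and no control mouse gave one. Loss of KAP1 and bearing a tumour therefore cannot be told apart here. Of the 10 members 0 were called, against 0.239% of all genes called higher, 0.0968% called lower and 0.336% called in either direction, and 0 of 10 had an unadjusted p under 0.05 in edgeR. DESeq2 and limma-voom also called 0. Akr1b7 had the largest log2 fold change, -1.60 ± 1.09, from 4 counts in KAP1-deleted livers and 13 in control livers, a ratio of 0.315 with an exact counting interval of 0.0749 to 1.02. The other 9 members lay between -0.34 ± 0.25 for Akr1b3 and 0.41 ± 0.32 for Akr1c20 on the log2 scale. Their 95% intervals lay within -1.18 and 1.15, and a missed threshold does not show that levels within that range were equal. Akr1c6 had a log2 fold change of 0.12 ± 0.24 and Akr1c14 of 0.33 ± 0.30, and in both the KAP1-deleted livers were above both control livers. Akr1b3, Akr1b7 and Akr1b10 were below both control livers, against 16.7% and 14.6% of all genes above and below.

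Of the other aldo-keto reductases, 8 of 10 were tested, and 2 were lower and 0 higher in tumour than in KAP1-deleted liver. Their median log2 fold change was -0.03, that of all genes being -0.03 and that of the members 0.66. Beside this list and the lists and markers below, 4.8% of all genes were called higher and 6.64% lower in that comparison. With the mouse as a block, 1571 of 17558 genes were called higher and 2318 lower. Akr1d1, the steroid reductase of bile acid synthesis, had 16.0 and 37.0 CPM in tumours and 149 and 156 CPM in KAP1-deleted livers, against 159 and 223 CPM in control livers. Both tumours were far below all livers, by a log2 fold change of -2.53 ± 0.39 against KAP1-deleted liver (edgeR adjusted p = 0.00952, and 0.0503 without KAP1-deleted liver 2). Akr7a5, a reductase of succinic semialdehyde and toxin-derived aldehydes, had 27.6 and 27.8 CPM in tumours and 51.7 and 64.2 CPM in KAP1-deleted livers, against 43.8 and 66.5 CPM in control livers. It fell by a log2 fold change of -1.07 ± 0.23 (edgeR adjusted p = 0.0262) and lost the call without KAP1-deleted liver 2 or either tumour. Akr1c18, which lies among the members on chromosome 13, had 0.483 and 4.93 CPM in tumours and 0.204 and 0.275 CPM in KAP1-deleted livers, against 0.289 and 0.306 CPM in control livers. Tumour 2 was apart from the other 5 libraries, and the log2 fold change of 3.47 ± 1.09 was not called (edgeR adjusted p = 0.0982).

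Genes of polyol and fructose handling, the pathway that begins with Akr1b3, were lower in tumour than in KAP1-deleted liver in 4 of 7 and higher in 0, with a median log2 fold change of -1.15. Tkfc, the triokinase that passes fructose carbon into glycolysis, had 48.3 and 45.6 CPM in tumours and 101 and 108 CPM in KAP1-deleted livers, against 95.1 and 87.8 CPM in control livers. Its log2 fold change was -1.15 ± 0.17 (edgeR adjusted p = 0.00657), and it was called with each library left out in turn. Khk, the fructose kinase, and Slc2a5, a fructose transporter, were also called. Without KAP1-deleted liver 1, KAP1-deleted liver 2 or tumour 1 the count fell to 1 of the list.

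Of 15 tested genes of steroid reduction and oxidation, 3 were lower and 1 was higher in tumour than in KAP1-deleted liver, with a median of -0.39. Srd5a1, which reduces testosterone and other steroids ahead of the Akr1c enzymes, had 4.85 and 4.61 CPM in tumours and 13.9 and 17.5 CPM in KAP1-deleted livers, against 18.5 and 23.0 CPM in control livers. Its log2 fold change was -1.73 ± 0.21 (edgeR adjusted p = 0.00331), called with each library left out in turn. Hsd17b11, a lipid droplet dehydrogenase, had 409.8 and 424 CPM in tumours and 123 and 176 CPM in KAP1-deleted livers, against 131 and 152 CPM in control livers, and rose by 1.48 ± 0.23 on the log2 scale (edgeR adjusted p = 0.00894, and 0.0591 without KAP1-deleted liver 1). The list's count of lower genes was 2 without KAP1-deleted liver 1 and 1 without KAP1-deleted liver 2 or tumour 1. Hsd17b6, a dehydrogenase of androgens, was lower in KAP1-deleted than in control liver by a log2 fold change of -2.27 (edgeR adjusted p = 0.0244), the only gene of these 5 lists called in that comparison, and its call was lost without tumour 1 (adjusted p = 0.0610) or tumour 2, which share in the estimate of the spread.

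Of 28 tested genes of aldehyde and retinaldehyde metabolism, 5 were lower and 0 higher in tumour than in KAP1-deleted liver, with a median of -0.36. Aldh1l1, a folate-dependent dehydrogenase, had 221 and 223 CPM in tumours and 710.3 and 947 CPM in KAP1-deleted livers, against 638 and 856 CPM in control livers. Its log2 fold change was -1.90 ± 0.26 (edgeR adjusted p = 0.00559), called with each library left out in turn. The count of lower genes was 1 without KAP1-deleted liver 2 or tumour 1 and 2 without KAP1-deleted liver 1 or tumour 2, and with the mouse as a block 8 were lower and 2 higher.

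NRF2 targets, genes of the oxidative stress response, ran the other way, with 4 of 19 higher and 0 lower in tumour than in KAP1-deleted liver and a median of 0.54. Gstm3, a glutathione transferase, had 178 and 259 CPM in tumours and 2.25 and 4.83 CPM in KAP1-deleted livers, against 2.02 and 7.72 CPM in control livers. Its log2 fold change was 5.94 ± 0.81 (edgeR adjusted p = 0.0143), and 62.3% of its 31-base words are its own, so reads of relatives may add to it. Gstm1, Abcc4 and Srxn1 were the others called, and the level of Gstm1, with 71.2% of its words its own, is uncertain in the same way. Without KAP1-deleted liver 1 or KAP1-deleted liver 2 the count was 0, and with the mouse as a block 5 were higher and 2 lower. Against control liver, 6.15% of all genes were called higher in tumour and 7.76% lower. The calls higher and lower were 0 and 2 of 8 for the other aldo-keto reductases and 0 and 4 of 7 for polyol and fructose handling. They were 1 and 4 of 15 for steroid reduction and oxidation, 0 and 6 of 28 for aldehyde and retinaldehyde metabolism, and 3 and 0 of 19 for NRF2 targets.

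**Figure D4:**
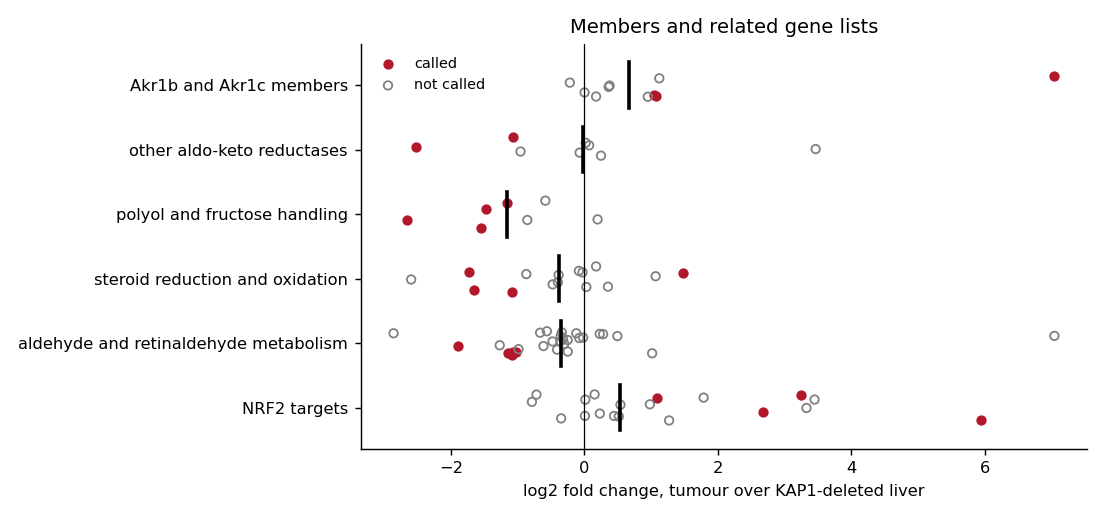
Log2 fold change of tumour over KAP1-deleted liver for the tested genes of 6 lists, with filled points for calls at an adjusted p under 0.05 and black bars at list medians. The members' median is 0.66, that of polyol and fructose handling -1.15 and that of NRF2 targets 0.54.

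Calls among cell type markers differed from list to list, and the part of these markers in the members' differences was not tested. Of 7 hepatocyte markers tested, 1 was called lower and 0 had a log2 fold change above 0 in tumour against KAP1-deleted liver, and 4 were lower with the mouse as a block. Kupffer cell and macrophage markers summed to 209 and 318 CPM in tumours and 457 and 493 CPM in KAP1-deleted livers, against 455 and 438 CPM in control livers, with 3 of 8 called lower in tumour than in KAP1-deleted liver. Endothelial markers summed to 207 and 190 CPM in tumours and 304 and 302 CPM in KAP1-deleted livers, against 278 and 295 CPM in control livers, with 2 of 8 lower, and 4 with the mouse as a block. Stellate cell and fibroblast markers summed to 192 and 347 CPM in tumours and 335 and 443 CPM in KAP1-deleted livers, against 375 and 420 CPM in control livers. Reln and Dcn made up most of that sum in every library but tumour 1, and the members differed in direction, with 1 of 8, Des, called lower, 0 called higher and 3 with a log2 fold change above 0. Those 3 were Col1a1, Acta2 and Col3a1, of which Col3a1, a fibrillar collagen, had 75.3 and 78.4 CPM in tumours and 25.8 and 38.2 CPM in KAP1-deleted livers, against 13.1 and 53.9 CPM in control livers (edgeR adjusted p = 0.267 for tumour against KAP1-deleted liver). With the mouse as a block 2 members of this list were higher and 4 lower. Cholangiocyte markers summed to 5.25 and 23.8 CPM in tumours and 30.9 and 37.5 CPM in KAP1-deleted livers, against 18.9 and 35.2 CPM in control livers, with 0 of 5 tested called and 1 lower with the mouse as a block. Lymphocyte markers summed to at most 6.91 CPM in any library, with 0 of 7 tested called and 4 higher in tumour than in KAP1-deleted liver with the mouse as a block. Exocrine pancreas markers summed to 9.83 and 38.4 CPM in tumours and 5.13 and 26.3 CPM in KAP1-deleted livers, against 5.66 and 8.27 CPM in control livers. Cela1 made up most of the sum in the other 5 libraries but 9.66 CPM of it in KAP1-deleted liver 2. Of the 2 tested 0 were called, and 1 was higher in tumour than in KAP1-deleted liver with the mouse as a block. Without KAP1-deleted liver 1, 5 of 7 tested were called higher in KAP1-deleted than in control liver. Adrenal cortex markers, listed because Akr1b7 is an adrenal gene, summed to 4.20 and 3.98 CPM in tumours and 4.22 and 7.82 CPM in KAP1-deleted livers, against 3.15 and 4.57 CPM in control livers. Cyp21a1 and Star carried these sums. Mc2r was at 0 in all 6 libraries, Cyp11b2 had 1 count in KAP1-deleted liver 1 and 0 elsewhere, and Cyp11b1 and Nr5a1 had 1 count each in tumour 1 and 0 elsewhere. Cyp11a1 had 1 and 7 counts in tumours and 0 in all 4 livers.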

How the data were processed

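RNA from liver or tumour tissue was sequenced after a stranded TruSeq library preparation, per the labels' protocols, whose extraction text speaks of cell lines although each sample is labelled as tissue. The deposited values are counts, whole numbers per Ensembl identifier. The authors made them with TopHat and HTSeq 0.6.1 on build mm9, per the submitters' processing notes. The TopHat version, the annotation, the strand setting and any filtering of reads are not given in the sources, so overlapping and antisense genes cannot be told apart by strand. All 6 libraries carry 1 batch label.

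Entries that name no gene (20.9% to 36.7% of counted reads) were left out. Identifiers were matched to symbols of the GRCm38 reference (32919 of 37991 genes, 157 of 159 listed symbols), and start regions were taken from RefSeq. No mm9 coordinate is given. The test was that of edgeR 4.0.16 (R 4.3.3), with filterByExpr (minimum count 10, minimum total 15), TMM, 1 mean per group and a robust quasi-likelihood fit with 3 residual degrees of freedom (common biological coefficient of variation 0.23). P-values were two-sided, adjusted by Benjamini-Hochberg over 17558 genes. Counts of both libraries of a group were summed for the Akr1b7 ratios. Alternatives were 2 other scalings, no filter or a minimum mean CPM of 1, leaving out the 20 genes with most counts, DESeq2 1.42.0, limma-voom (limma 3.58.1), fits to 2 groups, replicate blocks and each library left out. The share of 31-base words that a gene shares with no other gene of the reference transcripts was computed, and under 80% its level is named uncertain.

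Tumour and KAP1-deleted liver of 1 number carry the same mouse code in their titles, and across genes the departures of the pair from their group means had r = 0.185. This pairing from the same animal was not in the model, and blocked values are given where they change a member's call or move a count of calls by over 1.5 times. The members, lists, motifs and rules were chosen with earlier results of these data known. All 10 members are named, and of each list the counts called and up to 3 genes with the smallest adjusted p in tumour against KAP1-deleted liver, of which the text gives values for 1 or 2 and some are not reported here. Akr1c18, Hsd17b6, Khk, Srxn1 and the single marker genes were named after their values were seen, as were the TATAAA motif and the transcript lengths used per kb.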

Additional observations from a re-analysis of the deposited data

How the results depend on the processing

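Of 10 members, 3 were called higher in tumour than in KAP1-deleted liver, 5 with no filter on low counts (Akr1b10 and Akr1c20 added), and 1 to 3 when each library was left out in turn. A minimum mean CPM of 1 ended the call of Akr1c19 (adjusted p = 0.0508), and upper-quartile scaling, DESeq2 and the fit to 2 groups added Akr1c20. Over all genes the calls higher moved too, from 842 of 17558 to 1563 of 27238 with no filter. They were 703 of 13081 with that minimum and 1254 of 17558 in DESeq2. Without either KAP1-deleted liver Akr1b7 alone was called, and fewer of all genes were called higher as well. Against control liver the count was 3, and 1 to 3 with each library left out. The count of members called lower was 0 in every fit run in all 3 comparisons, as was the count called in either direction between KAP1-deleted and control liver. The replicate block by mouse gave 4 members higher in tumour than in KAP1-deleted liver, by adding Akr1c20, and changed no other member's call. Blocking by replicate number also gave 4 in each tumour comparison, and 0 between KAP1-deleted and control liver, where those numbers mark different mice (r = 0.386). Over all 17558 genes that block called 1195 higher in tumour than in KAP1-deleted liver, against 842 in the main fit. For tumour against control liver it called 1433, against 1080. No filter and DESeq2 also gave 4 members against control liver, by adding Akr1c19, with 1801 of 27238 and 1457 of 17558 genes called higher.

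Some log2 fold changes of members changed sign, and not all of these were near 0 in the main fit. Akr1b10 was at 0.67 in tumour against control liver and Akr1c14 at 0.38 in tumour against KAP1-deleted liver. Akr1c20 was at 0.41 between KAP1-deleted and control liver. In tumour against KAP1-deleted liver, the log2 fold change of Akr1b3 was 0.0029, and it was -0.045 in limma-voom, -0.022 with the mouse block, -0.018 with the number block and -0.34 to 0.27 with each library left out, while Akr1c14 ran from -0.096 to 0.72 with each library left out. Against control liver, leaving out each library in turn gave -0.025 to 1.14 for Akr1b10, -0.11 to 0.20 for Akr1b8 and -0.076 to 0.15 for Akr1c12. Between KAP1-deleted and control liver it gave -0.25 to 0.17 for Akr1c13, -0.37 to 0.075 for Akr1c19 and -0.028 to 1.004 for Akr1c20. None of these was called, and the cause was not tested.

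Over all genes, upper-quartile scaling gave 970 higher and 896 lower in tumour than in KAP1-deleted liver, against 842 and 1165 with TMM, and the mouse block gave 1571 and 2318. With no filter, 354 genes were higher and 217 lower in KAP1-deleted than in control liver, and DESeq2 gave 152 and 78, against 42 and 17. The Akr1b7 share of the Akr1b level in tumours was 61.3% with exon-union lengths and 35.8% with the shortest coding transcripts. Akr1b7, at 2 to 9 counts per liver library, left a counting interval of 0.0749 to 1.02 for its ratio of KAP1-deleted to control liver. With 2 libraries per group, leaving 1 out leaves a lone sample assumed to vary like the other groups.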
